A study of Mus musculus with 12 samples.

Results

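The signal recognition particle (SRP) and its receptor were followed through 8 protein-coding genes, taken by name from the 23362 genes counted: Srp9, Srp14, Srp19, Srp54a, Srp68, Srp72, Srpr and Srprb. The cells were GMP (granulocyte-macrophage progenitors, marrow precursors of granulocytes and monocytes) of C57BL/6 mice that were either Xbp1-deficient (KO) or wild type (WT). In 6 libraries the GMP had been sorted, transduced with GATA2, a DNA-binding factor that eosinophils and mast cells need, sorted again and kept in culture for 48 hours (GATA2-GMP, 3 KO and 3 WT). In the other 6 libraries the GMP went from the sorter into Trizol (GMP, 3 KO and 3 WT). Polyadenylated RNA was sequenced, after amplification with a SMARTer Ultra Low Input kit and a TruSeq preparation for GATA2-GMP, and after TruSeq alone for GMP, so stage, transduction, culture and kit cannot be told apart. The labels name neither the Xbp1 allele, nor any Cre driver, nor the animals behind each replicate number, and no control vector is among the groups. The p-values therefore measure the spread between these libraries, which may be technical in part.

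SRP is a ribonucleoprotein that reads the first stretch of a secretory or membrane protein as it leaves the ribosome and takes the whole complex to the endoplasmic reticulum (ER). Its Alu domain, built with SRP9 and SRP14, slows translation while the ribosome travels. Its S domain holds SRP19, which helps the particle assemble, the GTPase SRP54, which binds the signal sequence, and the SRP68-SRP72 pair. At the membrane the GTPase SRP receptor alpha (Srpr) docks SRP54, anchored by the membrane GTPase SRP receptor beta (Srprb), and the ribosome is handed to the Sec61 translocon. XBP1 acts in the unfolded protein response once IRE1, a sensor in the ER membrane, has spliced its mRNA. It is known to drive genes of this secretory machinery, and granulocytes load their granules through it.

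The 12 libraries held 8220484 to 33645602 gene counts, so 1 CPM, the unit of counts relative to library size, stood for 8.22 to 33.6 reads before scaling. The CPM printed here use scaled library sizes. Over all 12 libraries the factors ran from 0.6881 (GATA2-GMP WT 1) to 1.359 (GMP KO 3). The members were read deeply enough for small differences in all but Srp54a, which had 41 to 199 reads per library, against 312 to 9947 for the other members. Xbp1 itself had 76.9, 93.6 and 98.7 CPM in GATA2-GMP KO, against 293, 207 and 151 CPM in GATA2-GMP WT. In GMP it had 115, 70.6 and 76.0 CPM in KO, against 170.1, 173 and 202 CPM in WT. The genotypes did not overlap at either stage, and mean Xbp1 was 58.7% lower in GATA2-GMP KO and 52.1% lower in GMP KO. Which part of the gene was deleted is not given in the sources used here, so the reads that remain in KO say nothing of the allele. On a scaling common to all 12 libraries, a list of 9 eosinophil genes summed to 55837 to 67899 CPM in GATA2-GMP KO and 135498 to 206815 CPM in GATA2-GMP WT, and to 318 to 644 CPM in GMP KO and 77.1 to 273 CPM in GMP WT. A list of 8 GMP and neutrophil precursor genes summed to 4465 to 5929 CPM in GATA2-GMP KO and 6414 to 9141 CPM in GATA2-GMP WT, and to 22553 to 26934 CPM in GMP KO and 26233 to 28709 CPM in GMP WT. No gene of these 2 lists was without reads in any group, and 5 monocyte and macrophage genes summed to 2699 to 4902 CPM in GATA2-GMP KO, 3838 to 8167 in GATA2-GMP WT, 835 to 1087 in GMP KO and 873 to 1006 in GMP WT. Mast cell and basophil genes summed to 5424 to 11469 CPM in GATA2-GMP KO, 3265 to 10814 in GATA2-GMP WT, 71.4 to 88.4 in GMP KO and 83.1 to 103.5 in GMP WT, while lymphoid and plasma cell genes summed to 9.16 CPM at most, with Cd3e at 0 in every group but GATA2-GMP KO. The eosinophil sum thus moved with genotype at both stages, in opposite directions. Most of it in GATA2-GMP was Prg2, at 49507 to 60190 CPM in KO and 121077 to 178019 CPM in WT. The GMP and neutrophil precursor sum was also lower in GATA2-GMP KO. Kit, in that list, was higher there (113 to 200 CPM, against 28.5 to 100.3 in WT). In GMP that sum overlapped between genotypes, though its gene Elane had 1326 to 1617 CPM in KO and 3177 to 3566 in WT. The part of these differences in the results that follow was not tested. The lists that moved with stage were not tested for their part in the stage differences either. In bulk RNA, fewer cells of a type and less RNA per cell cannot be told apart.

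Positions of the genes are on mm9 (GENCODE M1). Srp9 is at chr1:184054868-184062538, Srp14 at chr2:118301586-118305447, Srp72 at chr5:77403708-77428962, Srp68 at chr11:116106480-116135531 and Srp54a at chr12:56181557-56214680, with Srp19 on chromosome 18. The genes of both receptor subunits are on chromosome 9, Srpr at chr9:35007760-35055558 and Srprb at chr9:103090363-103104467. Of the 50-base windows in the exons, 98.9% to 100% occur once in the genome for Srp14, Srp19, Srp68 and Srp72, 95.6% for Srprb, 71.8% for Srpr and 67.1% for Srp9. For Srp54a the share was 5.77%, because Srp54b and Srp54c on the same chromosome are near copies of it. The deposited tables hold a counter for alignments that were not unique, 40.3 to 55% of records per library, kept apart from the genes, so reads within the repeated windows may be missing from Srp54a, and to a lesser degree from Srp9 and Srpr. Srprb shares 888 bases, 29% of its exons, with Trf on the same strand, and Srpr shares 50 bases with Fam118b on the opposite strand. Srp54a shares 167 bases, 6.64% of its exons, with Srp54b on the same strand. The tables also keep a counter of ambiguous records apart from the genes, so reads in these shared bases may be missing as well.

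In freshly sorted GMP, 4 of the 8 SRP genes were called lower in KO than in WT: Srp72, Srp9 and both receptor genes, Srpr and Srprb. Their mean CPM was 20% to 25.1% below WT, and none of the 8 was called higher. Of these calls only that of Srp72 held whichever single library was left out. None held in a single fit of all 12 libraries, which called 17 of 12803 genes. Of all 12002 genes tested, 2.52% were called lower and 0.658% higher (edgeR's quasi-likelihood test with Benjamini-Hochberg adjustment across these genes, threshold 0.05). All 8 log2 fold changes of KO over WT were below 0, as were 48.2% of those of all genes tested. Their median was -0.29, against 0.006 for all genes. In 6 members every KO library lay under every WT library, and the background for that pattern was 10.7% of all genes. The plot of CPM by library in GMP shows the members side by side.

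**Figure D1:**
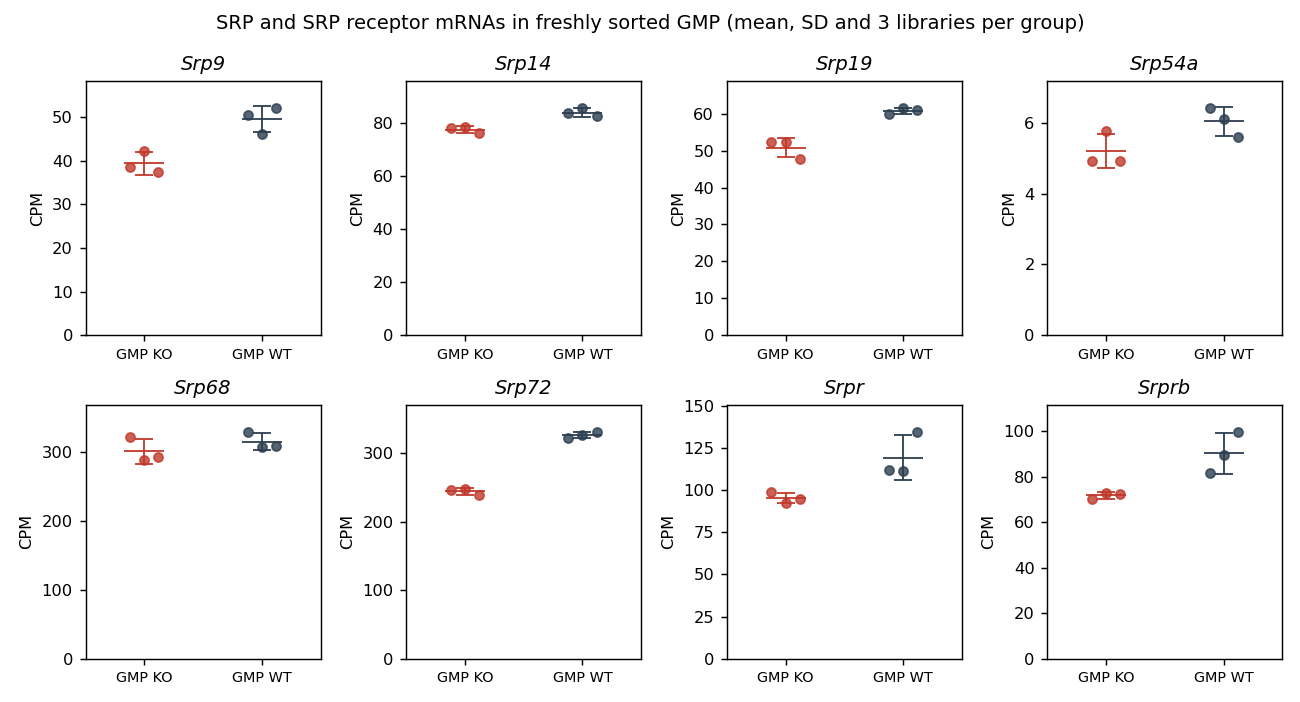
CPM of the 8 SRP and SRP receptor genes (y axis, from 0) in GMP KO and GMP WT libraries; points are the 3 libraries of each group, long lines the means and bars the SD. KO libraries lie under all WT libraries in Srp9, Srp14, Srp19, Srp72, Srpr and Srprb, and overlap with them in Srp54a and Srp68.

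The Alu-domain genes differed in size of effect. Srp9 had 38.6, 42.3 and 37.4 CPM in GMP KO, against 50.6, 46.3 and 52.1 CPM in GMP WT. The groups did not overlap, and the log2 fold change was -0.32 (SE 0.075, adjusted p = 0.0354). Srp14, which forms the heterodimer with SRP9, had 78.3, 78.5 and 76.3 CPM in KO, against 84.0, 85.7 and 82.7 CPM in WT. Here too the groups did not overlap, but the gap was 7.64% of the WT mean, the log2 fold change was -0.11 (SE 0.055), and the test was not passed (adjusted p = 0.38). The difference between the changes of the pair was not tested; the log2 ratio of Srp9 to Srp14 counts was -1.02, -0.89 and -1.03 in GMP KO, and -0.73, -0.89 and -0.67 in GMP WT.

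Among the S-domain genes Srp72 changed most. It had 247, 248 and 239 CPM in GMP KO, against 323, 326.5 and 331 CPM in GMP WT. The means were 245 ± 5.12 CPM in KO and 327 ± 4.10 CPM in WT (SD, n = 3 each), so the gap was many times the spread within either group. The log2 fold change was -0.42 (SE 0.049, adjusted p = 0.00034), number 56 of all 12002 genes by p. Its partner Srp68, which binds the SRP RNA beside it, had 322, 288.5 and 293 CPM in KO, against 329, 308 and 309.6 CPM in WT. Those groups overlapped, and the log2 fold change was -0.066 (SE 0.058), with an adjusted p of 0.65. As a description of the pair within each library, the log2 ratio of Srp68 to Srp72 counts was 0.38, 0.22 and 0.30 in GMP KO, and 0.03, -0.09 and -0.10 in GMP WT.

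Srp19 fell just short of the threshold. It had 52.4, 52.4 and 47.8 CPM in GMP KO, against 59.9, 61.5 and 61.2 CPM in GMP WT, with no overlap. The log2 fold change was -0.25 (SE 0.063, adjusted p = 0.0509). A pairing of the GMP libraries by replicate number was inferred from these same data and is not in the labels. With that number as a block, Srp19 passed (log2 fold change -0.25, adjusted p = 0.013). It also passed without a filter on low counts (0.044) and with a transcript length offset (0.038). Srp54a, the signal-binding GTPase, had 4.93, 5.77 and 4.91 CPM in KO, against 6.41, 6.11 and 5.61 CPM in WT. The groups overlapped at this depth (log2 fold change -0.20, SE 0.15, adjusted p = 0.58). Of its near copies, Srp54c had 8.31, 8.04 and 8.03 CPM in KO, against 9.23, 9.99 and 10.4 CPM in WT, without overlap, and Srp54b had no read in any GMP library.

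The genes of both receptor subunits fell. Srpr had 98.7, 92.5 and 94.7 CPM in GMP KO, against 112, 111 and 134 CPM in GMP WT. The highest KO library lay below the lowest WT library, and WT 3 stood above the other two of its group (log2 fold change -0.32, SE 0.076, adjusted p = 0.041). Srprb had 70.1, 73.0 and 72.5 CPM in KO, against 81.55, 89.7 and 99.6 CPM in WT. Its KO libraries were close together and its WT libraries further apart, without overlap (log2 fold change -0.33, SE 0.073, adjusted p = 0.0274). Trf, whose exons overlap those of Srprb, had 109, 113 and 112 CPM in KO, against 118, 119.8 and 151 CPM in WT, so its WT 3 library was also the highest. Whether reads in the shared bases were set aside or counted for either gene is not given in the sources used here. The log2 ratio of Srpr to Srprb counts ran from 0.34 to 0.49 in GMP KO and from 0.31 to 0.46 in GMP WT.

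The Srp72 call held without any 1 of the 6 GMP libraries (adjusted p 0.00038 to 0.0052). The other 3 calls did not: Srp9 missed the threshold without KO 1 (adjusted p = 0.066), KO 3 (0.15), WT 1 (0.13) or WT 3 (0.13), Srpr without KO 2 (0.11), KO 3 (0.15) or WT 3 (0.10), and Srprb without KO 2 (0.056), KO 3 (0.0995), WT 2 (0.081) or WT 3 (0.094). Without KO 3 or without WT 3 only Srp72 was called, without KO 2 the called members were 2, and without KO 1, WT 1 or WT 2 they were 3. Calls among all genes were 209 of 12144 without KO 3 and 237 of 12125 without WT 3, against 381 of 12002 with all 6. They were 370 of 12127 without KO 2 and 398 of 12113 without KO 1. Without WT 1 they were 271 of 12141, and without WT 2 298 of 12140. In a single fit of all 12 libraries none was called, Srp72 having an adjusted p of 0.64 and the other 3 of 1, and with upper quartile scaling Srpr missed the threshold (0.053). The single fit called 17 of 12803 genes, and upper quartile scaling 378 of 12002.

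What the 4 promoters of the genes that fell in GMP KO look like is shown here because XBP1 is known to bind DNA with an ACGT core. The sequences are RefSeq's on GRCm38.p6, 250 bases before and 50 after each start, printed along the gene's strand. They are chr1:182124487-182124786 (plus) for Srp9, chr5:76974451-76974750 (plus) for Srp72, chr9:35210953-35211252 (plus) for Srpr and chr9:103202016-103202315 (minus) for Srprb. Capitals mark ACGTG on either strand, which reads CACGT where it lies on the other strand, and TGACGTG, which contains it.
Srp9: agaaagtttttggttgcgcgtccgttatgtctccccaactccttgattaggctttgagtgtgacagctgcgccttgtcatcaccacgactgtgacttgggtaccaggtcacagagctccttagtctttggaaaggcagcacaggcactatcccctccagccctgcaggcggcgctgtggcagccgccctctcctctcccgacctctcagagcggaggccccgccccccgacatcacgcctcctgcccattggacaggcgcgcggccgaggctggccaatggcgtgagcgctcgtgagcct
Srp72: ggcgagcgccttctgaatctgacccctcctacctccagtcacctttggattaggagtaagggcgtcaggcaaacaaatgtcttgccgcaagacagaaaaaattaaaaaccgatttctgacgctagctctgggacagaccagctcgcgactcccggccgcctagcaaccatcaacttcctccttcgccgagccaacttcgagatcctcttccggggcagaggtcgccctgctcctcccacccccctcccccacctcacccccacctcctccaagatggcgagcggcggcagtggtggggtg
Srpr: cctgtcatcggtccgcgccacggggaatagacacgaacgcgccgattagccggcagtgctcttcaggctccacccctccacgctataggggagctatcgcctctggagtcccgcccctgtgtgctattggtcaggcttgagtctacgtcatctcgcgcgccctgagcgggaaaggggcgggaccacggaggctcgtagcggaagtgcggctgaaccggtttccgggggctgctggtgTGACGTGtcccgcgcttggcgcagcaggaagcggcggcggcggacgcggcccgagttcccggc
Srprb: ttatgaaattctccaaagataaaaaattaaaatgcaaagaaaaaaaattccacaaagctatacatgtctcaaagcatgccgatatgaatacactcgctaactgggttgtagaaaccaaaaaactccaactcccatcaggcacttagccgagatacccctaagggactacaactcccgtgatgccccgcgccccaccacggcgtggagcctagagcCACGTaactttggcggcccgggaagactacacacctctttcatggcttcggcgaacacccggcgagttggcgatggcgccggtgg
ACGTG lay 11 bases before the start of Srpr, as part of TGACGTG, and 35 bases before that of Srprb, while these letters are not in the Srp9 and Srp72 windows. Of the 6 members with a promoter in the table, 4 held ACGTG, among them Srp14, 17 bases before its start, and Srp54a, 225 bases before, neither of which passed the test. ACGTG on either strand was in 19.6% of all 32851 promoters and TGACGTG in 2.01%. The ER stress response element, CCAAT and CCACG spaced by 9 bases of any kind, was in 0.119% of them and in none of the 6. A match is a description of letters and not of binding.

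In GATA2-GMP no SRP gene was called. Of all 11699 genes tested there, 0.274% were called lower and 0.103% higher. The adjusted p of the members ran from 0.64 to 0.95, none had an unadjusted p under 0.05, a mark passed downwards by 8.31% of all genes and upwards by 6.59%, and DESeq2 called none of the 8 either. The log2 fold change of KO over WT was below 0 in 7 members, against 50.4% of all genes, with a median of -0.16, against -0.005 for all genes. The standard errors ran from 0.20 to 0.33, against 0.049 to 0.15 in GMP, so a change of the size seen in GMP was not detectable at this spread. Without WT 3 the members' median was 0.021. The plot of fold changes by stage shows the wider bars.

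**Figure D2:**
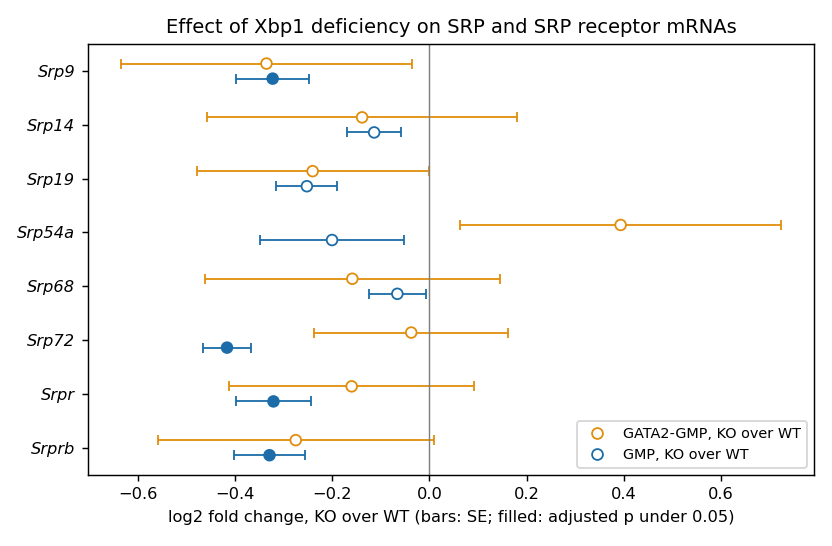
Log2 fold change of KO over WT (x axis) for each gene, in GATA2-GMP (upper symbol) and in GMP (lower symbol), with bars of 1 SE; filled symbols passed an adjusted p of 0.05 in edgeR. Only Srp9, Srp72, Srpr and Srprb in GMP are filled, and 7 of the 8 GATA2-GMP values lie left of 0.

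Srp72 had 257, 244 and 260 CPM in GATA2-GMP KO, against 253, 251 and 277 CPM in GATA2-GMP WT. The groups overlapped closely, with means of 254 ± 8.60 CPM in KO and 260.2 ± 14.5 CPM in WT (SD, n = 3 each), and the log2 fold change was -0.037 (SE 0.20). Srp9 had 46.2, 42.1 and 74 CPM in KO, against 83.8, 73.8 and 47.2 CPM in WT. KO 3 sat among the WT values and WT 3 among the KO values, so that the log2 fold change of -0.33 had an SE of 0.30. Srp14 had 171, 171 and 282 CPM in KO, against 253, 289.7 and 144 CPM in WT, with KO 3 again among the WT values and WT 3 below every KO library. Srp19 had 142, 151 and 214 CPM in KO, against 189.8, 230.1 and 179 CPM in WT, and again KO 3 was the highest of its group and WT 3 the lowest of its own.

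The receptor genes and Srp68 ran the other way. Srpr had 72.3, 85.85 and 57.5 CPM in GATA2-GMP KO, against 69.85, 67.4 and 104 CPM in GATA2-GMP WT. Srprb had 66.1, 86.9 and 56.1 CPM in KO, against 71.2, 64.8 and 117 CPM in WT. Srp68 had 62.1, 72.1 and 38.9 CPM in KO, against 68.4, 44.2 and 80.7 CPM in WT. In all 3 genes KO 3 was the lowest of the 6 libraries and WT 3 the highest. Trf, which shares exon bases with Srprb, had 25.1, 15.2 and 37.2 CPM in KO, against 7.44, 11.2 and 16.1 CPM in WT, with overlap. Srp54a was the exception among the members, with 3.50, 3.30 and 4.755 CPM in KO, against 2.92, 3.14 and 2.73 CPM in WT. Every KO library was above every WT library, a pattern that 10.4% of all genes showed, and the log2 fold change was 0.39 (SE 0.33, adjusted p = 0.64). Its near copy Srp54c had 7.63, 10.5 and 8.525 CPM in KO, against 9.825, 8.94 and 7.47 CPM in WT, with overlap. Srp54b had 1 read, in KO 3.

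Within GATA2-GMP, 3 of the members with short transcripts and 3 with longer ones moved apart from library to library, in both genotypes, while Srp54a and Srp72 did not follow their length. Srp14, Srp19 and Srp9, whose longest coding transcripts have 798, 956 and 1367 bases, lay above their means together in KO 3, WT 1 and WT 2. Srp68, Srpr and Srprb, with 2526, 2993 and 3063 bases, were high in KO 2 and WT 3 and lowest in KO 3. Srp72, the longest with 3625 bases, stayed within -0.08 and 0.11 of its mean on the log2 scale. Srp54a, with 2516 bases close to Srp68 in length, was at 0.50 in KO 3 and -0.28 in WT 3, opposite in sign to Srp68 in both libraries. As a description over 6 libraries that share their preparation, Pearson's r was 0.91 between Srp9 and Srp14, 0.98 between Srpr and Srprb, 0.87 between Srp68 and Srpr, -0.87 between Srp14 and Srpr and -0.75 between Srp54a and Srp68. Over 12077 genes, Spearman's rho between transcript length and the deviation from the stage mean was 0.24, 0.26 and -0.31 in the KO libraries and -0.17, -0.30 and 0.39 in the WT libraries. In the GMP libraries it stayed between -0.14 and 0.15. The part of this trend in the members' spread was not tested as a cause; with transcript length as an offset, chosen after seeing the data, the GATA2-GMP comparison still called no member.

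**Figure D3:**
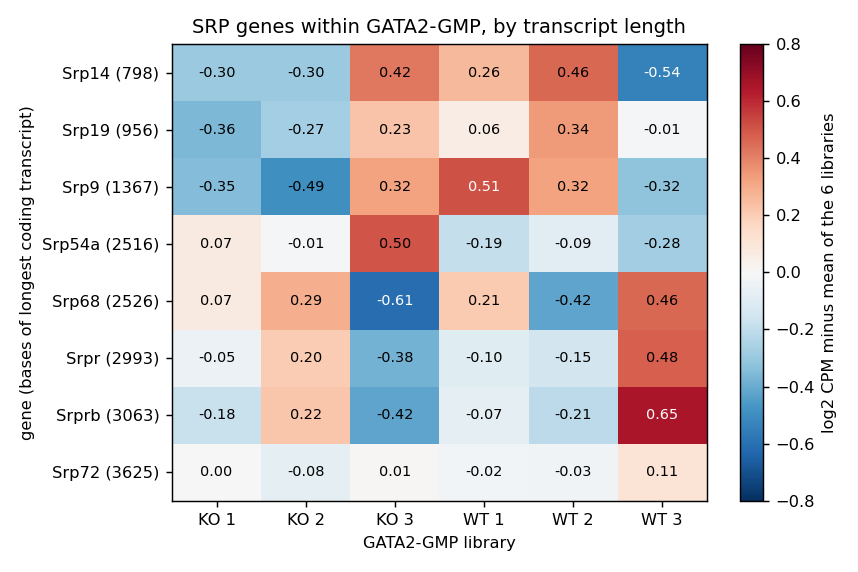
Log2 CPM of each gene in each GATA2-GMP library less its mean over the 6 libraries (colour and printed value), with genes ordered down the page by the bases of their longest coding transcript and KO libraries left of WT libraries. The 3 shortest genes are red in KO 3, and blue or near 0 in WT 3, where Srp68, Srpr and Srprb are red.

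The difference of the KO effect between GATA2-GMP and GMP was tested over all 12 libraries. It called 0.0859% of 12803 genes and no member with edgeR, and the members' adjusted p ran from 0.335 to 1, none with an unadjusted p under 0.05, a mark passed upwards by 5.96% of all genes and downwards by 8.95%. The value for Srp72 was 0.36 on the log2 scale (SE 0.17, unadjusted p = 0.05002 and adjusted p = 0.335 in edgeR). DESeq2 called Srp72 alone of the members for that difference (log2 0.33, adjusted p = 0.022). DESeq2 called far more genes for it, 794 of all 12803, against 11 with edgeR. Srp54a had 0.58 (SE 0.33, adjusted p = 0.44), and the other 6 had values from -0.11 to 0.14. The calls in GMP and their lack in GATA2-GMP are therefore not shown to differ by edgeR.

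Between the stages the members did not move as a unit. Srp14 had 221.5, 221.5 and 365 CPM in GATA2-GMP KO, against 61.2, 62.2 and 57.0 CPM in GMP KO, and 328, 376 and 187 CPM in GATA2-GMP WT, against 64.9, 66.1 and 62.6 CPM in GMP WT, on the scaling common to all 12 libraries. That was 4.48-fold higher in KO and 4.61-fold higher in WT. Srp19 was 5.57-fold higher in KO and 5.56-fold higher in WT, and Srp9 2.3-fold higher in KO and 2.33-fold higher in WT. Srp72 was 1.74-fold higher in KO and 1.35-fold higher in WT, and Srprb 1.63-fold in KO and 1.58-fold in WT. Srp68 went the opposite way, with 80.7, 93.6 and 50.4 CPM in GATA2-GMP KO, against 252, 228.5 and 219 CPM in GMP KO, and 88.8, 57.3 and 105 CPM in GATA2-GMP WT, against 254, 237 and 234 CPM in GMP WT. Its level in GATA2-GMP was 0.321 times that in GMP in KO and 0.346 times in WT, without overlap.

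**Figure D4:**
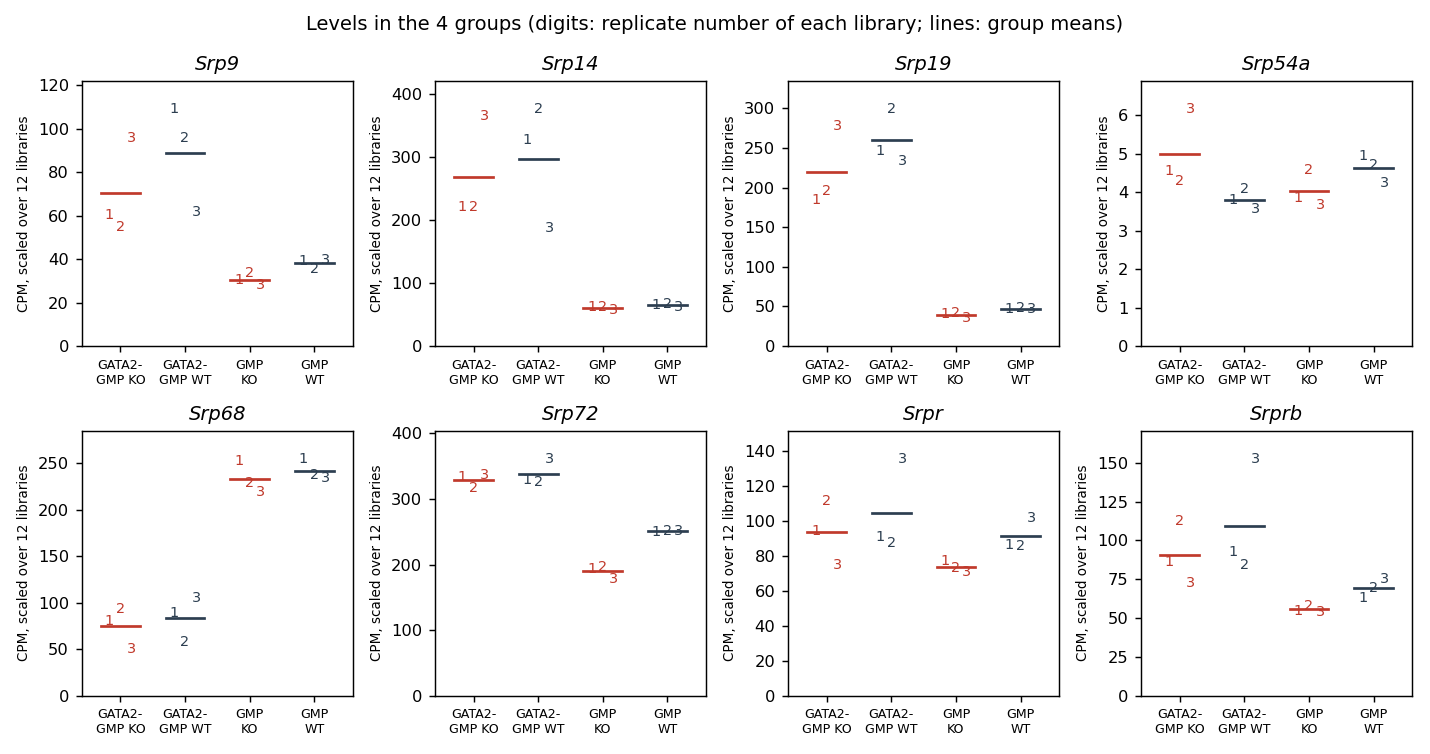
CPM scaled over all 12 libraries (y axis, from 0) in the 4 groups; each digit is 1 library, placed at its value and giving its replicate number, and lines are group means. Srp9, Srp14 and Srp19 stand higher in GATA2-GMP, Srp68 stands lower, and the GATA2-GMP libraries range more widely than the GMP libraries of the same genotype, except for Srp54a in WT.

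The test called 5 members higher and 1 lower in GATA2-GMP in both genotypes. Calls were common at this contrast: 38.6% of 12438 genes were called higher and 40.0% lower in KO, and 34.1% of 12251 higher and 36.4% lower in WT. The log2 fold change of Srp14 was 2.17 in KO (SE 0.22, adjusted p = 1.87e-05) and 2.21 in WT (SE 0.26, adjusted p = 0.000164). For Srp19 it was 2.48 in both (SE 0.19, adjusted p = 3.87e-06 in KO; SE 0.16, adjusted p = 1.06e-05 in WT), and for Srp68 -1.63 in KO (SE 0.22, adjusted p = 0.000125) and -1.52 in WT (SE 0.23, adjusted p = 0.000568). Srp9 had 1.20 in KO and 1.23 in WT, Srp72 0.80 in KO and 0.44 in WT, and Srprb 0.71 in KO and 0.67 in WT, all past the threshold. Srpr (0.35 in KO, adjusted p = 0.0763, and 0.20 in WT, adjusted p = 0.40) and Srp54a (0.30 in KO, adjusted p = 0.28, and -0.28 in WT, adjusted p = 0.34) did not pass it. Its near copy Srp54c had 9.91 to 13.6 CPM in GATA2-GMP KO, against 6 to 6.5 in GMP KO, on the common scaling. In WT it had 9.73 to 12.8 CPM in GATA2-GMP, against 7.13 to 7.84 in GMP. In WT the call of Srp72 (adjusted p = 0.0233) was lost without a filter on low counts (0.0902), with upper quartile scaling (0.14) and without GMP WT 1 (0.11), 2 (0.11) or 3 (0.10), and that of Srprb (0.0358) with upper quartile scaling (0.0934) and without GMP WT 1 (0.13), 2 (0.0991) or 3 (0.0749). In KO, Srpr passed with DESeq2 (0.0254), with DESeq2's size factors (0.039) and without GATA2-GMP KO 3 (0.00067).

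Transcript length moved with this contrast too. The median log2 fold change of all genes was 0.94, 0.09, -0.28 and -0.66 in 4 equal classes of genes from the shortest to the longest transcripts in KO, and 0.87, 0.04, -0.32 and -0.66 in WT. Srp9, Srp14 and Srp19 are in the shortest class, Srp54a and Srp68 in the next, and Srp72, Srpr and Srprb in the third. With length as an offset, Srp14 had 0.97 in KO and 0.91 in WT, Srp19 1.5 in KO and 1.47 in WT, and Srp9 0.66 in KO and 0.64 in WT, all still called higher. Srp68 stayed lower, at -1.455 in KO and -1.36 in WT. Srp72 had 1.28 in KO and 0.91 in WT and Srprb 1.05 in KO and 0.99 in WT. Srpr was then called higher as well (0.67 in KO, adjusted p = 0.0016, and 0.51 in WT, adjusted p = 0.0265). With the offset, 5179 of 11747 genes were called higher and 4126 lower in KO, and 4594 of 11587 higher and 3736 lower in WT. The offset also moved the median of all genes upward, from -0.055 to 0.188 in KO and from -0.092 to 0.139 in WT. In GMP, between KO and WT, the trend was small: the classes had medians of 0.01, 0.01, 0.01 and 0.00 in GMP KO over WT. Under the offset the 4 calls there held and Srp19 was called as well, where 313 of 11353 genes were called lower. The plot of stage differences against length places the members among all genes.

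**Figure D5:**
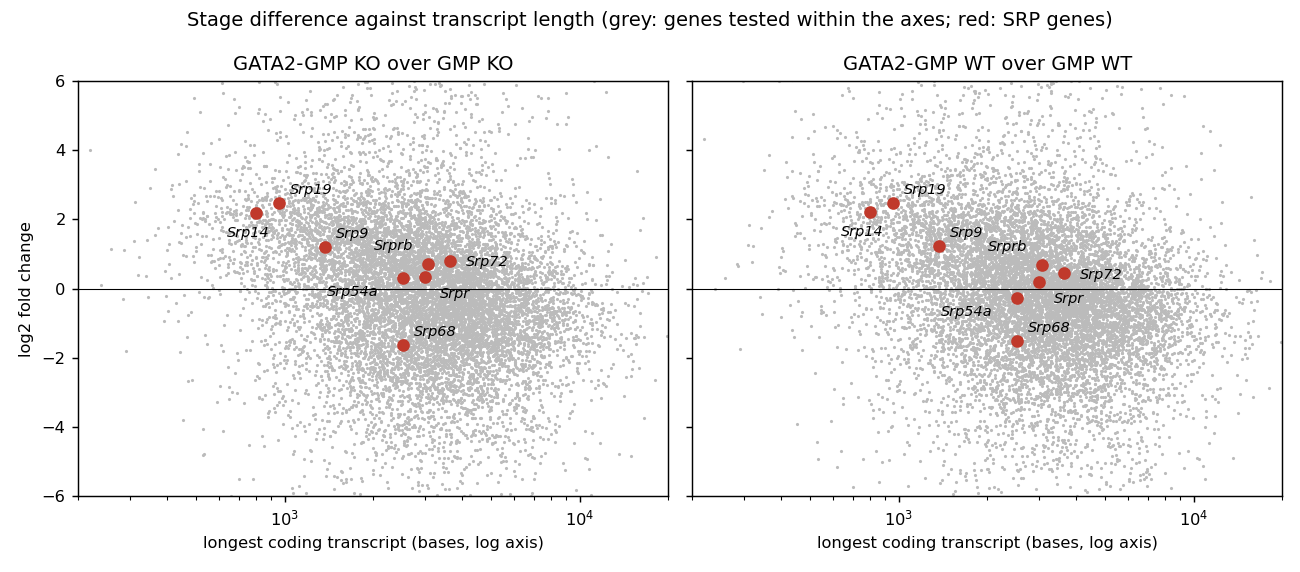
Log2 fold change of GATA2-GMP over GMP (y axis) against the bases of the longest coding transcript (x axis, log scale), in KO (left) and WT (right); grey points are the genes tested that lie within the axes and red points the 8 members. The grey cloud slopes down with length; Srp14 and Srp19 stand at the short, high end and Srp68 at -1.63 in KO and -1.52 in WT.

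Levels per kilobase of transcript gave a different order at the 2 stages. They were divided by the full transcript and not by its single-copy part. That part is 5.77% of windows for Srp54a, 67.1% for Srp9 and 71.8% for Srpr, so the places of these genes may be too low. Srprb shares 29% of its exon bases with Trf on the same strand, so its place may be too low as well. Dividing by length leaves each gene's stage difference as it was, and with it the trend with transcript length. Srp14 and Srp19, which came first in GATA2-GMP, have the shortest transcripts of the members. The part of that trend in the new order was not tested. In GMP, Srp68 was first with 92.4 ± 6.70 CPM per kb in KO and 95.8 ± 4.31 in WT, followed by Srp14 with 75.4 ± 3.42 in KO and 80.8 ± 2.21 in WT (SD, n = 3 each). Srp72 had 52.3 ± 2.66 in KO and 69.1 ± 0.303 in WT, and Srp19 41.2 ± 3.33 in KO and 48.8 ± 0.680 in WT. Srpr, Srp9 and Srprb followed between 18.2 and 24.6 CPM per kb in KO and between 22.6 and 30.5 in WT, and Srp54a was last with 1.60 in KO and 1.84 in WT. Neighbours did not overlap in GMP except Srpr and Srp9 in both genotypes, for which the ranges met. In GATA2-GMP, Srp14 (338 ± 104 in KO and 372 ± 123 in WT) and Srp19 (229 ± 52.9 in KO and 271.5 ± 36.0 in WT) came first and overlapped with each other. Srp72 had 90.7 ± 3.03 in KO and 93.3 ± 5.41 in WT, and Srp9 51.3 ± 16.4 in KO and 64.9 ± 17.9 in WT. Srpr, Srp68 and Srprb had means of 29.5 to 35.8 CPM per kb in both genotypes and overlapped with each other, and in WT Srpr and Srprb also overlapped with Srp9, and Srp54a was last with 1.99 in KO and 1.51 in WT. The pair of SRP68 and SRP72, which sit in the particle together, thus had a log2 count ratio of -2.05, -1.76 and -2.74 in GATA2-GMP KO and -1.89, -2.50 and -1.78 in GATA2-GMP WT, all below every GMP library.

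Downstream of SRP, many genes of the membrane channel and its partners were also called lower in GMP KO. Of the 12 genes of the Sec61 translocon, its partners Sec62, Sec63 and TRAM, and the translocon-associated protein complex, 8 were called lower and none higher, with a median log2 fold change of -0.51. The lowest was the channel subunit Sec61b at -0.94 (SE 0.079, adjusted p = 3.5e-05) and the highest Sec61a2 at 0.15 (SE 0.096, adjusted p = 0.50). Signal peptidase, which cuts off the signal sequence, had 3 of 5 genes lower with a median of -0.43, from its subunit gene Spcs3 at -0.84 (SE 0.063, adjusted p = 1.6e-05) to Spcs1 at -0.11 (adjusted p = 0.45). Of 4 genes for ribosome-binding and ER sheet proteins 2 were lower, with a median of -0.22, from the ribosome receptor Rrbp1 at -0.34 (adjusted p = 0.0057) to Ckap4 at -0.12 (adjusted p = 0.42).

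Genes that serve the ribosome or other entries to the ER were not called in GMP KO. Of 16 genes of the GET pathway, which inserts tail-anchored proteins, and of the ER membrane protein complex, none passed (median 0.00, from the GET receptor gene Wrb at -0.45, adjusted p = 0.11, to the chaperone gene Sgta at 0.12, adjusted p = 0.41). Of 8 factors that act at the ribosome on emerging chains, such as the nascent polypeptide-associated complex and N-terminal processing enzymes, none passed (median 0.02, from Metap1 at -0.084 to Naa10 at 0.070). The median of the SRP members, -0.29, lay between those of these lists and the translocon. Of all genes 2.52% were called lower and 0.658% higher, so no call in lists of 16 and 8 genes is near that share. Wrb, though not called, lay below every SRP member, the lowest of which was Srp72 at -0.42. Whether the lists differ from each other was not tested.

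In GATA2-GMP none of these 5 lists had a called gene, where 0.274% of all genes were called lower and 0.103% higher. The medians of KO over WT were -0.52 for the translocon list, -0.58 for signal peptidase, -0.78 for ER sheet proteins, -0.23 for the GET and membrane protein complex genes and 0.03 for ribosome factors, beside -0.16 for the SRP members. The lowest values were Emc10 at -1.28 (SE 0.31, adjusted p = 0.12), Sec63 at -1.10 (SE 0.26, adjusted p = 0.12), Ckap4 at -0.99 (SE 0.26, adjusted p = 0.13), Sec11c at -0.77 (adjusted p = 0.36) and Naa15 at -0.36 (adjusted p = 0.51). The highest were Emc9 at 0.78 (adjusted p = 0.45), Tram2 at 0.40 (adjusted p = 0.84), Btf3l4 at 0.29 (adjusted p = 0.68), Ktn1 at 0.057 (adjusted p = 0.94) and Sec11a at -0.51 (adjusted p = 0.38). The difference of the KO effect between stages called no gene of the lists either, where 0.0859% of all genes were called. No call in these lists is near that share. Between the stages, where 38.6% of all genes were called higher and 40.0% lower in KO, and 34.1% higher and 36.4% lower in WT, all 5 signal peptidase genes were higher in GATA2-GMP in both genotypes, and of the 12 translocon genes 9 were higher and 2 lower in KO, and 8 higher and 1 lower in WT. Of the 16 GET and membrane protein complex genes, 8 were higher and 6 lower in KO, and 6 higher and 5 lower in WT, of the 8 ribosome factors 7 were higher and 1 lower in KO, and 4 higher and 1 lower in WT, and of the 4 sheet genes 1 was higher and 2 lower in either.

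The genes whose levels ran most like the mean of the members were sought over all 12 libraries, after removing the mean of each stage, among 12795 genes. Pearson's r was 0.955 for Tmem39a, 0.928 for Gm2a, 0.913 for the signal peptidase gene Spcs3, 0.906 for Ufl1 and 0.897 for Stx5a. These values describe libraries that share genotype, preparation and the length trend, and carry no test.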

How the data were processed

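Per the labels, polyadenylated RNA of 12 libraries was sequenced, 3 per group. The values are the deposited raw counts per gene symbol; they are whole numbers and their sums differ between libraries. The submitters' processing notes list STAR 2.3.0, HTSeq, DESeq, SAMtools 0.1.14 and build mm9 without their roles; strand setting, annotation and filters are not given in the sources used here. A table had 23366 genes, and 5 counter rows for records assigned to no gene (55.8 to 66.5% of records), which were left out. Of 27 gene names turned into dates, 23 were restored and 4 genes left out. No 2 libraries were alike: the closest pair differed in 14460 genes. Totals were 8220484 to 33645602 counts.

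Each comparison was fitted on the libraries of its groups in edgeR 4.0.16 (R 4.3.3) with filterByExpr, TMM scaling and the robust quasi-likelihood test. A trial on simulated data used a common spread for all genes and no length trend. It checked the code, and not how the test behaves in libraries like those of GATA2-GMP. P-values were adjusted by Benjamini-Hochberg across every tested gene, with a threshold of 0.05. SE was obtained from the fold change and F, as their ratio after taking the root of F. CPM used TMM library sizes of the stage, or of all 12 libraries where stages are compared. Transcript lengths, exon overlaps and 50-base windows come from GENCODE M1 on mm9, promoters from RefSeq on GRCm38.p6, with 6 of 8 members matched. All 8 members and the near copies are named whatever their values; from each of 5 pathway lists the lowest and highest gene, and the 5 genes most like the members. The members and lists were chosen with earlier results of these data known.

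Alternatives were DESeq2 1.42.0, its size factors, upper quartile scaling, no filter, a single fit of all libraries, a replicate block, leaving out each library, and, chosen after seeing the data, a transcript length offset. Same-numbered libraries deviated together in GMP (r over 12803 genes 0.264, 0.193 and 0.127), which is the source of the pairing used there, since the labels say nothing of it. In GATA2-GMP the values were -0.129, -0.233 and -0.41, and between stages -0.0374 to 0.037, so no pairing was taken.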

Additional observations from a re-analysis of the deposited data

How the results depend on the processing

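The GMP call of Srp72 held in all alternatives run except the fit of all 12 libraries. In GMP, KO against WT called 381 genes and 4 members. The fit of all 12 libraries called 17 genes and 0 members, the replicate block 964 genes and 5 members, and the block with the length offset 954 genes. Leaving out 1 library gave 209 to 398 genes and 1 to 3 members. In GATA2-GMP, 44 genes were called, against 294 without a filter, 567 with DESeq2 and 1461 in the fit of all 12. The length offset called 185, and a replicate block 3 without that offset and 4 with it. The labels give no pairing in GATA2-GMP, and same-numbered libraries did not deviate together, which does not exclude one. Leaving out 1 library there gave 0 to 525 genes, 525 without WT 3 and 0 without KO 1 or KO 3, and no member under any of these. The difference between stages was called for 11 genes, against 17 with DESeq2's size factors, 40 without a filter, 794 with DESeq2, 80 with the length offset, 0 with the block with or without the offset, and 0 to 1179 without 1 library, 1179 being without GATA2-GMP WT 3. Members called for it were 0, and 1 with DESeq2.

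Of the values of single members under alternatives, 524 kept direction and side of the threshold, 38 changed sign, 26 lost and 12 gained a call. The sign changes were all of uncalled values. For the difference between stages, Srp9 turned to 0.0075 with upper quartile scaling, 0.0032 with the length offset and 0.0017 with offset and block; Srp14 to 0.040 and 0.041 with offset, and offset and block; Srp19 to 0.034, 0.027 and 0.041 in the order of Srp9. Without 1 library these values ran from -0.32 to 0.14 for Srp9, -0.32 to 0.16 for Srp14, -0.21 to 0.11 for Srp19, -0.32 to 0.11 for Srp68, -0.0050 to 0.37 for Srpr and -0.16 to 0.35 for Srprb. In GATA2-GMP, without 1 library, KO over WT ran from -0.42 to 0.063 for Srp14, -0.37 to 0.057 for Srp68, -0.068 to 0.0070 for Srp72, -0.32 to 0.067 for Srpr and -0.47 to 0.035 for Srprb. In WT between stages, where no pairing by number was labelled or seen, the block ended the call of Srp72 (0.44, adjusted p = 0.071). The cause of these shifts was not tested. Upper quartile scaling put the median of all genes between stages at -0.20 in KO and -0.28 in WT. With 41 to 199 reads, Srp54a limits what can be seen.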
